A study of Mus musculus with 4 samples.

Results

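The 7 genes described here encode the mouse inhibitors of cyclin-dependent kinases (CDKs), proteins that hold the cell cycle in G1. The 4 Ink4 genes are Cdkn2a, Cdkn2b, Cdkn2c and Cdkn2d, and the 3 Cip/Kip genes are Cdkn1a, Cdkn1b and Cdkn1c. They were taken as the complete families by symbol and not picked by measured values, though earlier results of these data were known. Each has 1 row among the 46946 genes counted. All 7 were detected, at 1 or more CPM (reads scaled to the size of the library) in each of the 4 tumours, as were 28.2% of all genes.

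The RNA came from 4 untreated mouse tumours of 1 group, with the genotype K27M, sequenced as polyA libraries. The sample labels give their origin as neural stem cells carrying PDGF and the K27M change of histone H3, which blocks methylation of that histone by the Polycomb complex PRC2. The text for the whole series instead describes grafted cells of diffuse intrinsic pontine glioma (DIPG) that express mutant H3.3, and the counts used here do not settle the origin. Strain, age and sex of the hosts, the number of cell lines behind the tumours and any untreated brain or cultured cells are not part of the labels used here, so the comparisons below are between genes and between tumours, named in the table as T14, T10, T8 and TUN.

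Ink4 proteins bind Cdk4 and Cdk6 and keep D-type cyclins from them, which leaves the Rb protein active and E2F target genes off. Cip/Kip proteins bind whole cyclin-CDK complexes, mainly those of Cdk2 with cyclins E and A, and at low levels can also help cyclin D and Cdk4 to assemble. Cdkn2a has a further product, p19Arf, read in another frame, which binds Mdm2 and so stabilises p53, while p53 in turn switches on Cdkn1a. The Cdkn2a and Cdkn2b pair is a classical target of Polycomb silencing in neural and other stem cells, and in human gliomas it is often deleted together with the neighbouring MTAP gene.

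The start regions of 4 of the genes are shown because different known inputs act there: the separate Arf and p16 starts of Cdkn2a, the Cdkn2b start next to them, both starts of Cdkn1a, and Cdkn1b. Sequences are from RefSeq on GRCm38.p6, 5′ to 3′ on the gene's strand, and end at the base before the annotated start, except that the Arf window stops where an exon of the gene begins. Capitals mark motif matches on either strand.
Cdkn2a Arf start, chr4:89294654-89294869, minus strand: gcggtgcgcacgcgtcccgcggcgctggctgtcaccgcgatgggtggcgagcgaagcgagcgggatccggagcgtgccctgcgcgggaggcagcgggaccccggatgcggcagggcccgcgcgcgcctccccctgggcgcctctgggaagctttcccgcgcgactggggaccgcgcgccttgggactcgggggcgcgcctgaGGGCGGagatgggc
Cdkn2a p16 start, chr4:89282193-89282442, minus strand: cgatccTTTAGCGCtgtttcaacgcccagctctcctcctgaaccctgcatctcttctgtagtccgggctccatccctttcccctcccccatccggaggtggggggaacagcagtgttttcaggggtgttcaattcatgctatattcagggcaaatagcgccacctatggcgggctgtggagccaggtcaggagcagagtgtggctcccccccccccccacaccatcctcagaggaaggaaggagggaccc
Cdkn2b, chr4:89311033-89311282, minus strand: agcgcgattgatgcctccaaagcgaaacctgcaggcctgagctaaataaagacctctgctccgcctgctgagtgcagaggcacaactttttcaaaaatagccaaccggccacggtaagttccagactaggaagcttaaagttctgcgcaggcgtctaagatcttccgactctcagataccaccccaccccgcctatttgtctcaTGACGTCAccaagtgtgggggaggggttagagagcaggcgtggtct
Cdkn1a upstream start, chr17:29090729-29090978, plus strand: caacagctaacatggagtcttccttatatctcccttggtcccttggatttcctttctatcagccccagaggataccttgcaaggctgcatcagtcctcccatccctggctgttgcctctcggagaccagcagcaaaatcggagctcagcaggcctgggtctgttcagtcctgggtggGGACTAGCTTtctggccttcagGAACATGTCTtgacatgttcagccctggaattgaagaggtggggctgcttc
Cdkn1a downstream start, chr17:29093519-29093768, plus strand: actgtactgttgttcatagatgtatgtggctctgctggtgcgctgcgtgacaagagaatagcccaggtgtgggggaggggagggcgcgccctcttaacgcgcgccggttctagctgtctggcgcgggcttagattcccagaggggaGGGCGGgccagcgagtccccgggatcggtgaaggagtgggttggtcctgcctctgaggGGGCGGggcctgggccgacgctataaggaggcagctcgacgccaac
Cdkn1b, chr6:134920151-134920400, plus strand: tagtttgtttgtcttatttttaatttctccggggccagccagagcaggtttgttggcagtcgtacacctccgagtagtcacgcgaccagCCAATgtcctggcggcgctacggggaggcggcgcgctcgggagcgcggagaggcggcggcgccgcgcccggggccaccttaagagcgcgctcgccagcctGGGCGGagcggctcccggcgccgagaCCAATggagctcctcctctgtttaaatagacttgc
The motifs searched on both strands were the GC box GGGCGG, found in 32.7% of 32851 RefSeq promoter windows of 250 bases, CCAAT in 33.8%, the E2F motif TTTNGCGC in 1.13%, the cAMP response element TGACGTCA in 1.55%, the E-box CACGTG in 6.02%, TATAAA in 12.4% and the p53 half-site in 7.13%. No match overlaps another in the sequences shown. The upstream Cdkn1a window holds 2 p53 half-site matches and the downstream one 2 GC boxes. The p16 window holds 1 E2F match and the Cdkn2b window 1 cAMP response element. The Cdkn1b window holds 2 CCAAT boxes and 1 GC box, and the shown part of the Arf window 1 GC box. Over the full windows the ratio of observed to expected CpG pairs was 1.08 at the Arf start and 1.08 at Cdkn1b, 0.771 at the downstream and 0.110 at the upstream Cdkn1a start, 0.670 at Cdkn2b and 0.316 at the p16 start, beside a median of 0.373 over all windows. RefSeq windows matched 6 of the 7 genes. A match is a string of letters and no evidence of binding in these tumours.

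The libraries held between 21664889 and 24369339 counts, so 3 counts, the most that a 0 allows, correspond to 0.122 to 0.134 CPM. The biological coefficient of variation between tumours was 37.6%, and an edgeR goodness of fit to the abundance trend called 619 of 14266 genes tested (4.34%) at a Benjamini-Hochberg adjusted p under 0.05. The oligodendrocyte precursor list was detected in full (6 of 6 genes), led by Olig1 and Ptprz1, at summed levels of 8020 CPM in T14, 9420 CPM in T10, 12992 CPM in T8 and 10595 CPM in TUN. Markers of other brain cells were present in every library, and 0 genes of any marker list were without counts in all 4. Summed CPM in the order T14, T10, T8 and TUN was 3876, 3135, 1026 and 1026 for neurons, 5444, 2987, 1700 and 1576 for astrocytes, and 3634, 4883, 917 and 872 for mature oligodendrocytes. Microglia and macrophage markers summed to 624, 449, 730 and 1416 CPM and proliferation markers to 726, 784, 1358 and 1705 CPM. Endothelial and mural markers (led by Rgs5 and Cldn5) summed to 363, 320, 284 and 244 CPM and erythroid markers (led by Hbb-bs and Hba-a1, whose reads near-identical globin copies can share) to 81.8, 11.5, 10.2 and 5.0 CPM. Past the edgeR goodness of fit were 6 of 8 neuron genes (among them Rbfox3, Stmn2 and Snap25), 4 of 6 astrocyte genes (Gja1, Aldh1l1, Aldoc and Gfap), 6 of 6 mature oligodendrocyte genes (Mobp, Mal, Mog and Mbp with the smallest p), Lyz2, Ttr and 2 of 3 erythroid genes tested, but 0 of 6 precursor, 0 of 7 proliferation and 0 of 6 endothelial and mural genes. In bulk RNA, fewer cells of a type and less RNA per cell cannot be told apart.

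Cdkn2a (ENSMUSG00000044303.6, mm10 chr4:89274471-89294653, minus strand) encodes p16Ink4a and p19Arf. It was present in every tumour, at 14.2 CPM in T14, 7.90 CPM in T10, 15.3 CPM in T8 and 23.8 CPM in TUN. T10 was the lowest and TUN the highest, and their 95% Poisson intervals, 6.83 to 9.09 and 21.8 to 25.9 CPM, do not meet. The mean was 15.3 ± 6.52 CPM, or 13.0 ± 5.56 RPKM, which also divides by exon length (SD, n = 4). Gene counts add both products: in GENCODE vM21 the first exon of the p16 transcript takes 207 bases (17.7% of the merged length), that of the Arf transcript 320 bases (27.3%), and 645 bases (55.0%) are common to both. The p16 to Arf balance was therefore not measured.

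Cdkn2b (ENSMUSG00000073802.4, chr4:89306289-89311032, minus strand), which encodes p15Ink4b, a target of TGF-beta signalling, is separated from Cdkn2a by 11635 bases. The starts of these genes are 16379 bases apart. Its level was 34.3 CPM in T14, 28.5 CPM in T10, 92.7 CPM in T8 and 82.4 CPM in TUN, a mean of 59.5 ± 32.8 CPM (42.7 ± 23.5 RPKM; SD, n = 4). T8 and TUN lay well above T14 and T10, with no tumour in between. Although both genes are neighbours, Cdkn2a in T14 stood 0.01 log2 units below its 4-tumour mean while Cdkn2b there stood 0.61 below. The difference of Cdkn2b over Cdkn2a, in log2(RPKM + 0.1), had T14 at 1.02, T10 at 1.59, T8 at 2.34 and TUN at 1.54, a mean of 1.62 ± 0.54 and above 0 in 4 of 4 tumours. The neighbouring gene Mtap, a methionine salvage enzyme 93390 bases from Cdkn2a, had 56.2, 78.4, 101 and 82.4 CPM in T14, T10, T8 and TUN. Cdkn2a, Cdkn2b and Mtap thus had reads in every library, which in bulk tissue says nothing of the copy number in tumour cells.

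Cdkn2c (ENSMUSG00000028551.14, chr4:109660876-109667189, minus strand) encodes p18Ink4c, an inhibitor known from proliferating neural progenitors. It reached 95.2 CPM in T14, 82.4 CPM in T10, 153 CPM in T8 and 177 CPM in TUN, a mean of 127 ± 45.4 CPM (47.3 ± 16.9 RPKM; SD, n = 4), with T8 and TUN again above T14 and T10. Cdkn2d (ENSMUSG00000096472.1, chr9:21288463-21291209, minus strand) encodes p19Ink4d, known for keeping neurons out of the cycle. It varied least of the Ink4 genes for its level (coefficient of variation 21.3%), at 46.4 CPM in T14, 32.5 CPM in T10, 46.6 CPM in T8 and 55.9 CPM in TUN, a mean of 45.3 ± 9.65 CPM (35.7 ± 7.59 RPKM; SD, n = 4). T14 and T8 were nearly level and T10 was the lowest.

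Cdkn1a (ENSMUSG00000023067.13, chr17:29090979-29100722, plus strand) encodes p21, the main CDK inhibitor downstream of p53. Its level was 87.1 CPM in T14, 54.4 CPM in T10, 121 CPM in T8 and 164 CPM in TUN, a mean of 107 ± 46.9 CPM (48.0 ± 21.1 RPKM; SD, n = 4). The tumours stood in the order of Cdkn2a, with T10 lowest and TUN highest, and the difference of Cdkn1a over Cdkn2a was steady, at 1.69, 1.85, 2.05 and 1.86 log2(RPKM + 0.1) units in T14, T10, T8 and TUN (1.86 ± 0.15). Of the 50-base stretches of Cdkn1a transcripts, 8.49% also occur in transcripts of other genes, so reads from there may have been lost or shared, depending on the authors' counting. A small gene on the other strand in GENCODE vM21 overlaps 4.05% of its exon bases.

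Cdkn1b (ENSMUSG00000003031.14, chr6:134920401-134925513, plus strand) encodes p27, which is controlled mostly through protein decay. With 256 CPM in T14, 173 CPM in T10, 204 CPM in T8 and 207 CPM in TUN it averaged 210.2 ± 34.4 CPM (46.2 ± 7.56 RPKM; SD, n = 4), the smallest spread of the 7 for its level (coefficient of variation 16.4%). It was the one inhibitor with its highest value in T14. It has the most exon bases of the 7 (4552), and per length it ranked first in T14 and T10 and behind other inhibitors in T8 and TUN.

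Cdkn1c (ENSMUSG00000037664.12, chr7:143458350-143461050, minus strand) encodes p57, an imprinted inhibitor expressed from the maternal copy. It was the lowest of the 7 per length, with 89 counts in T14, 193 counts in T10, 67 counts in T8 and 28 counts in TUN, that is 3.95, 7.86, 2.81 and 1.25 CPM and a mean of 3.97 ± 2.82 CPM (2.05 ± 1.46 RPKM; SD, n = 4). The order was the reverse of Cdkn2a and Cdkn1a at both ends, with T10 highest and TUN lowest, and the 95% Poisson intervals of those tumours, 6.79 to 9.05 and 0.831 to 1.81 CPM, do not meet. In GENCODE vM21 an antisense gene, Gm44732, overlaps 30.5% of the Cdkn1c exon bases. The gene table used here has no row for it and the library kit does not mark strand, so antisense reads cannot be told from those of Cdkn1c.

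**Figure D1:**
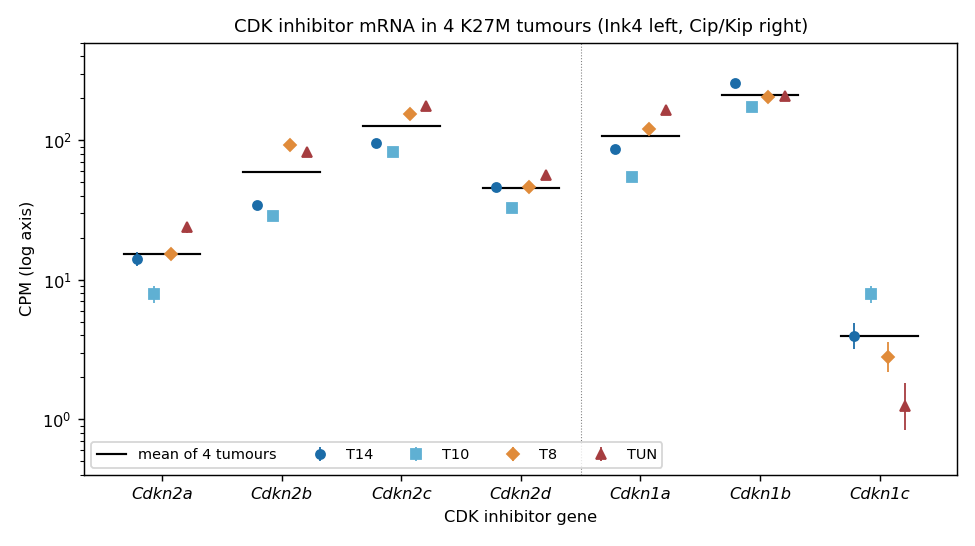
CPM (log axis) of each CDK inhibitor gene in the 4 tumours, Ink4 genes left of the dotted line and Cip/Kip genes right of it; symbols are tumours, thin bars exact 95% Poisson intervals (counting error only) and black lines 4-tumour means. T10 (squares) is the lowest tumour for every gene except Cdkn1c, for which it is the highest at 7.86 CPM.

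Most of the 7 genes shared an order of tumours. The genes were taken as whole families, though with earlier results of these data known. T10 was lowest for 6 of 7, against 25.0% of the genes tested, and TUN for the other, Cdkn1c, against 24.4%. T14 and T8 were lowest for 0 of 7, against 25.0% and 25.6%. TUN was highest for 4 of 7 (Cdkn2a, Cdkn2c, Cdkn2d and Cdkn1a), against 25.2% of the genes tested, and T14 (Cdkn1b), T10 (Cdkn1c) and T8 (Cdkn2b) for 1 each, against 29.3%, 20.7% and 24.9%. The first 4 genes followed the full order TUN, T8, T14, T10 from high to low, as did 8.43% of the genes tested. T8 and TUN both exceeded T14 and T10 for 5 of 7, the same 4 genes and Cdkn2b, against 32.5%, and the opposite held for Cdkn1c, as for 33.0%. The gaps behind this order were in places small, and for both Cdkn2a and Cdkn2d the 95% Poisson intervals of T8 and T14 overlap. Members are few, and the percentages describe how common each order was over the transcriptome.

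**Figure D2:**
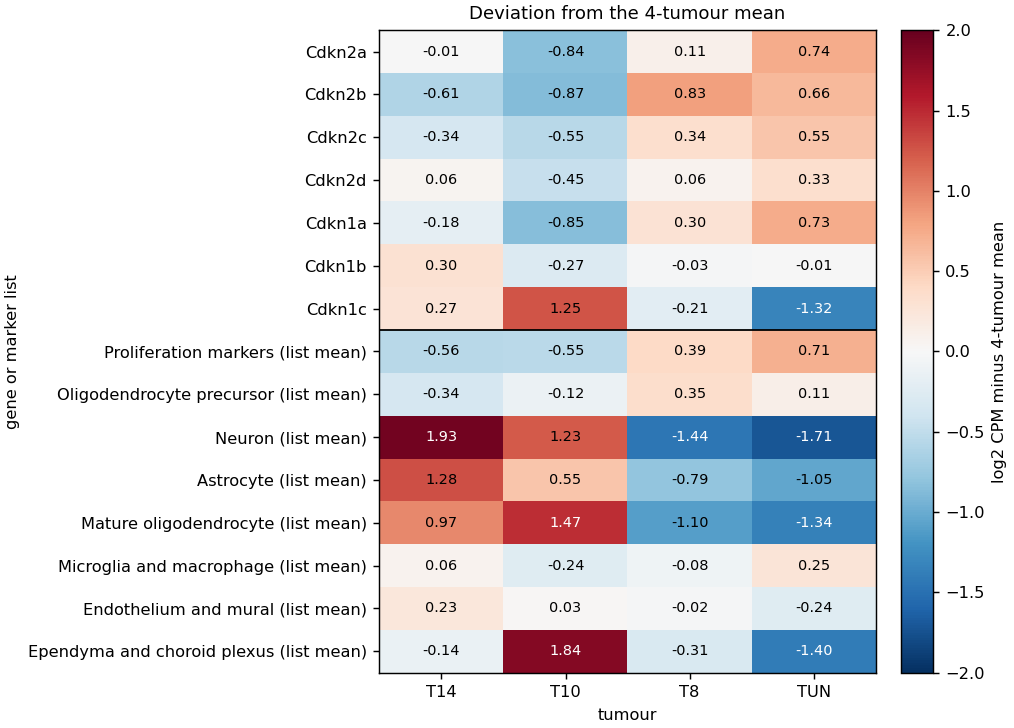
Deviation of log2 CPM (prior count 2) from the 4-tumour mean in each tumour for the 7 inhibitor genes (above the line) and, below it, averaged over the genes of each marker list at a mean of 1 CPM or more. Cdkn2a, Cdkn2b, Cdkn2c and Cdkn1a and the proliferation markers are below their means in T14 and T10 and above them in T8 and TUN, while Cdkn1c and the neuron, astrocyte and mature oligodendrocyte lists are lowest in TUN.

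Marker lists differed in which tumour was highest. The 7 proliferation markers, led by Top2a and Mki67, averaged 0.56 log2 units below their means in T14, 0.55 below in T10, 0.39 above in T8 and 0.71 above in TUN, and 7 of 7 were highest in TUN, against 25.2% of all genes tested. Mki67, the standard marker of cycling cells, stood at 205, 243, 340 and 427 CPM in T14, T10, T8 and TUN. Neuron, astrocyte and mature oligodendrocyte markers ran the other way, highest in T14 or T10. The microglia and macrophage list was split, with 4 of 7 genes highest in TUN and 3 of 7 in T14. Its 2 most abundant genes, C1qa (164, 112, 161 and 200 CPM in the same order) and Lyz2 (195, 113, 337 and 951 CPM), were lowest in T10 and highest in TUN, the ends that Cdkn2a, Cdkn2c, Cdkn2d and Cdkn1a also had. Csf1r (111, 102, 88.1 and 81.8 CPM) and P2ry12 (26.3, 24.2, 13.2 and 10.4 CPM) were instead highest in T14 and lowest in TUN, and Tmem119 was highest in T14 and lowest in T8; these genes were named after their values were seen. The ependyma and choroid plexus list was highest in T10, at a summed 57.3, 617, 48.8 and 13.8 CPM in T14, T10, T8 and TUN, led by Ttr. The mature oligodendrocyte list was also summed highest in T10 and lowest in TUN, and 6 of 6 of its genes were highest in T10, against 20.7% of all genes tested. Cdkn1c was likewise highest in T10 and lowest in TUN. The part of cell mix and proliferation in the inhibitor levels was not tested.

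None of the 7 genes was called more variable than its abundance trend in the edgeR goodness of fit (0 of 7 at a Benjamini-Hochberg adjusted p under 0.05, against 4.34% of all genes tested). With 4 tumours and 3 degrees of freedom, a gene left uncalled may still vary more than the trend. At an unadjusted p under 0.05 there was 1, Cdkn2b, against 8.38% of all genes, and DESeq2 listed 0 of 7 as dispersion outliers, against 0.547% of all genes. Cdkn2b had the smallest adjusted p of edgeR, 0.324, followed by Cdkn1c (0.845) and Cdkn1a (0.973). The spans were nonetheless wide for Cdkn1c, whose highest tumour was 6.28-fold above the lowest. They were 3.25-fold for Cdkn2b, 3.01-fold for both Cdkn1a and Cdkn2a, 2.15-fold for Cdkn2c, 1.72-fold for Cdkn2d and 1.48-fold for Cdkn1b. The span exceeded 2-fold for 5 of 7 genes against 29.1% of all genes tested, and the median span was 3.01-fold over the 7 and 1.57-fold over all genes. That count rests on T10 and TUN: it was 2 (Cdkn2b and Cdkn1c) without T10, against 24.7% of genes, and 3 (Cdkn2b, Cdkn1a and Cdkn1c) without TUN, against 23.3%.

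Among genes within 0.5 log2 units of their own mean abundance, Cdkn2b spanned more than 92.9%, Cdkn1a more than 92.5%, Cdkn1c more than 87.6%, Cdkn2a more than 85.0% and Cdkn2c more than 84.6%. Cdkn2d exceeded 69.5% and Cdkn1b 54.5% of such genes. The median gene of like abundance spanned 2.11-fold near Cdkn1c and 1.41-fold to 1.62-fold near the others.

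**Figure D3:**
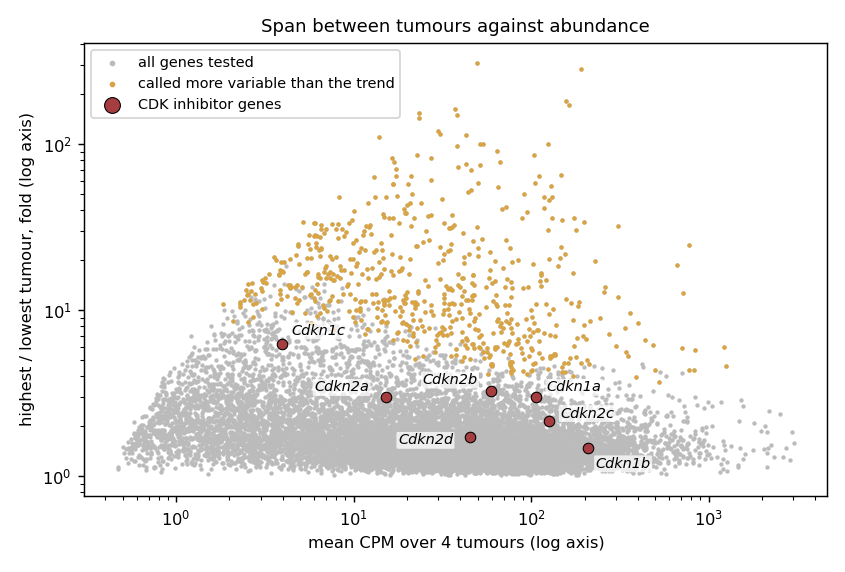
Highest over lowest tumour (fold, log axis) against mean CPM over the 4 tumours (log axis) for the 14266 genes tested; amber points are the 619 genes called by the edgeR goodness of fit and red circles the CDK inhibitors. The 7 inhibitors lie below the amber points of like abundance, with Cdkn2b, Cdkn1a and Cdkn1c nearest to them.

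Levels can be compared between genes only per length. By mean RPKM the order was Cdkn1a (48.0), Cdkn2c (47.3), Cdkn1b (46.2), Cdkn2b (42.7), Cdkn2d (35.7), Cdkn2a (13.0) and Cdkn1c (2.05). The upper 5 lay above 87.8% to 91.8% of the 13245 detected genes in mean RPKM, Cdkn2a above 63.6% and Cdkn1c above 14.8%. Neighbours among the upper 5 did not differ beyond their spread. The differences in log2(RPKM + 0.1) were -0.02 ± 0.23 for Cdkn1a minus Cdkn2c, -0.02 ± 0.56 for Cdkn2c minus Cdkn1b, 0.28 ± 0.89 for Cdkn1b minus Cdkn2b and 0.10 ± 0.66 for Cdkn2b minus Cdkn2d (SD, n = 4), each with 2 of 4 tumours on either side of 0. The step down to Cdkn2a was in the same direction in every tumour, at 1.52 ± 0.33 for Cdkn2d minus Cdkn2a.  The merged length of Cdkn2a holds the alternative first exons of both its products, 17.7% and 27.3% of that length. The first exon block of Cdkn2c takes 1580 of its 2686 merged bases, and a RefSeq start of the gene lies downstream of that block. The RPKM of Cdkn2a and Cdkn2c, and with it the Ink4 sums given below, may therefore be too low. Which starts were used was not measured, so the place of Cdkn2c among the upper 5 is uncertain. The next step was also in the same direction in every tumour, at 2.77 ± 1.67 for Cdkn2a minus Cdkn1c, which reached 4.77 in TUN and only 0.71 in T10. Of all 21 pairs, 12 had the same sign in 4 of 4 tumours and 13 had a mean beyond the SD. With 4 tumours the two-sided exact sign-flip test cannot go below p = 0.13, or 0.219 adjusted over 21 pairs, so no pair could be called.

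**Figure D4:**
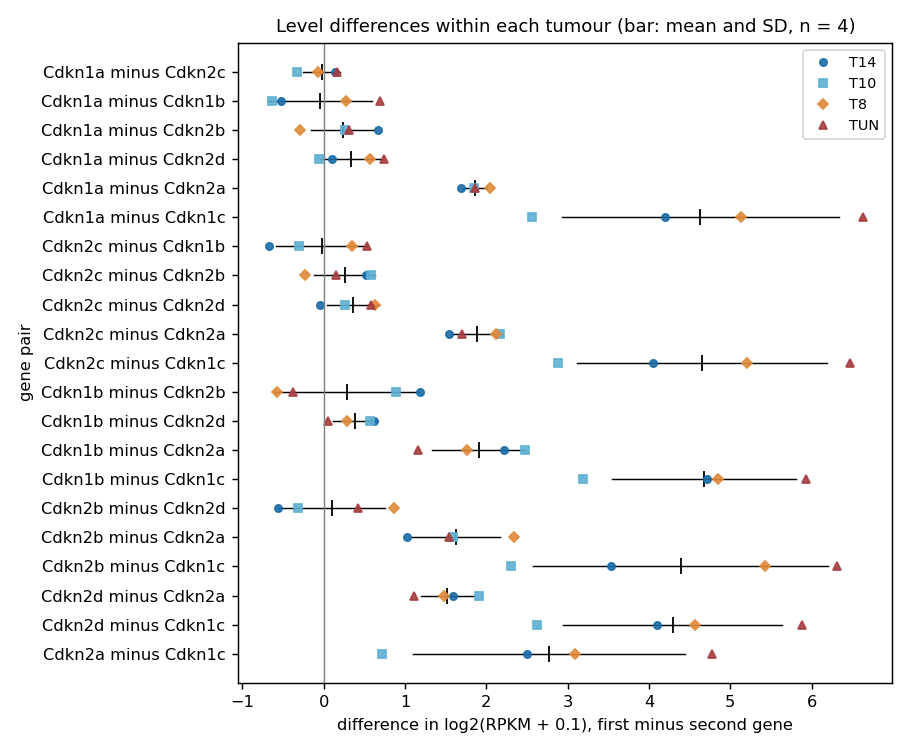
Difference in log2(RPKM + 0.1), first minus second gene, for each of the 21 pairs of CDK inhibitor genes; symbols are the 4 tumours, the tick is the mean and the bar the SD (n = 4). The 11 pairs with Cdkn2a or Cdkn1c lie wholly above 0, and of the other 10 only Cdkn1b minus Cdkn2d does.

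The make-up of the inhibitor mRNA varied between tumours, a description with no test. As a share of the summed RPKM of the 7 genes, Cdkn1b made up 27.3% in T14 and 25.4% in T10, where it led, but 16.4% in T8 and 14.7% in TUN. Cdkn2b had 11.9% in T14, 13.6% in T10, 24.3% in T8, where it led, and 19.1% in TUN. Cdkn1a led in TUN with 23.8%, against 19% in T14, 16.3% in T10 and 19.9% in T8. Cdkn2c took between 17.2% and 21.3%. Cdkn2a ranked last but one in every tumour with 4.49% to 6.55%, and Cdkn1c last with 0.21% to 2.71%.

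**Figure D5:**
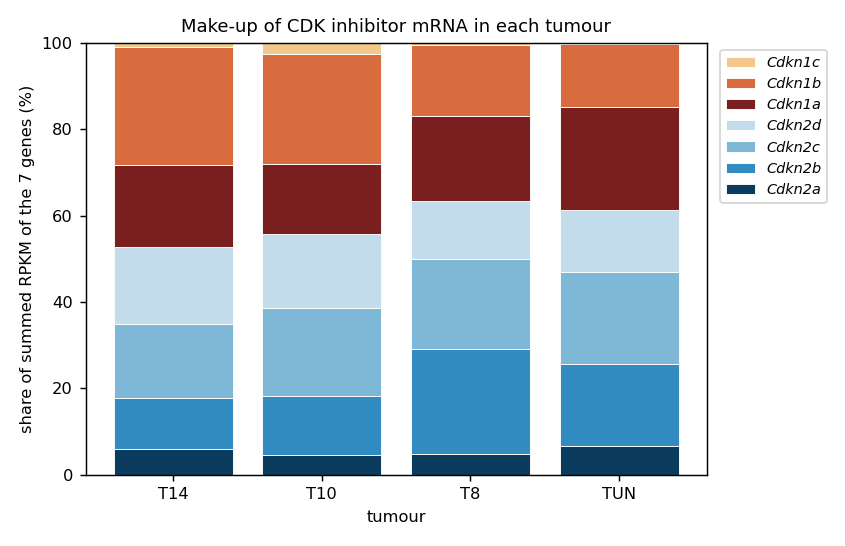
Share (%) of each gene in the summed RPKM of the 7 CDK inhibitors, 1 bar per tumour, with the Ink4 genes in blue and the Cip/Kip genes in red to yellow. The Ink4 share is 52.7% in T14 and 55.6% in T10, and 63.3% in T8 and 61.2% in TUN.

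Summed per family, the Cip/Kip genes reached 97.6 RPKM in T14, 66.6 RPKM in T10, 101 RPKM in T8 and 120.0 RPKM in TUN, against 109, 83.4, 173 and 189 RPKM in that order for the Ink4 genes. The log2 ratio of Cip/Kip to Ink4 had T14 at -0.16, T10 at -0.32, T8 at -0.78 and TUN at -0.66, a mean of -0.48 ± 0.29 and below 0 in 4 of 4 tumours (exact sign-flip p = 0.13, the smallest possible). The direction depends on the length correction, since in CPM, where the long Cdkn1b counts for more, the mean ratio was 0.43.

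The targets of the inhibitors did not share 1 order of tumours, but most were higher in T8 and TUN than in T14 and T10. The 10 kinase and cyclin genes averaged 0.42 log2 units below their means in T14 and 0.27 below in T10. They averaged 0.34 above in T8 and 0.35 above in TUN, and Cdk6 and Ccnd2 were the exceptions to this split. Cdk4, the kinase of the cyclin D complexes, had 247, 269, 533 and 490 CPM in T14, T10, T8 and TUN, and its paralog Cdk6 had 4.97, 6.72, 4.61 and 4.69 CPM. Per length they averaged 118 ± 45.4 RPKM for Cdk4 and 0.375 ± 0.071 RPKM for Cdk6 (SD, n = 4). The summed Ink4 level over the summed level of Cdk4 and Cdk6 had T14 at 0.51, T10 at 0.00, T8 at 0.08 and TUN at 0.32 log2 RPKM units, a mean of 0.23 ± 0.23 and above 0 in 4 of 4 tumours, though barely in T10 (exact sign-flip p = 0.13). In CPM this mean was -0.66, so its direction too depends on length. The summed Cip/Kip level over that of Cdk2 and Cdk1 had T14 at 1.91, T10 at 1.29, T8 at 0.87 and TUN at 0.75 on the same scale (1.21 ± 0.52; SD, n = 4), above 0 in 4 of 4 tumours. Cdk2, the main Cip/Kip target, stood at 16.6, 23.9, 41.3 and 47.8 CPM in that order. Of the cyclins, Ccnd1 stood at 2353, 2214, 3279 and 3039 CPM, Ccnd2 at 777, 1226, 1273 and 493 CPM, and the cyclin E gene Ccne1 at 11.2, 14.5, 24 and 28.1 CPM. Of the 10 kinase and cyclin genes, 0 passed the edgeR goodness of fit, against 4.34% of all genes tested, and 7 spanned over 2-fold, against 29.1%.

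Downstream, Rb1, the pocket protein gene that the Ink4 genes act through, stood at 56.6 CPM in T14, 64.4 CPM in T10, 73.7 CPM in T8 and 43.5 CPM in TUN, and 0 of 6 Rb and E2F genes passed the goodness of fit. Unlike Rb1 alone, the 6 genes averaged 0.39 and 0.11 log2 units below their means in T14 and T10. In T8 and TUN they averaged 0.26 and 0.24 above. In the p53 axis (0 of 6 passed), Trp53 stood at 48.4, 53.6, 107 and 85.6 CPM, so T8 and TUN were again the higher tumours. Mdm2, which is both the partner of p19Arf and a p53 target, was nearly level, at 82.2, 70.7, 72.5 and 76.4 CPM. Cdkn1a, another p53 target, spanned 3.01-fold. Also of this axis were Sesn2 (50.2, 48.8, 124 and 82.1 CPM), Ccng1 (207, 122, 240 and 219 CPM) and Trp53inp1 (139, 96.6, 130 and 138 CPM). These genes were lowest in T10, as Mdm2 and Cdkn1a were, whereas Trp53 was lowest in T14 and Mdm4 in T8. The genes for p27 and p21 decay (0 of 6 passed) included Skp2, the substrate receptor for p27, at 17.8, 18.9, 36.8 and 33.2 CPM, and its cofactor Cks1b at 10.2, 10.5, 20.5 and 25.4 CPM. Both stood higher in T8 and TUN than in T14 and T10, as did 32.5% of all genes tested, whereas Cdkn1b was highest in T14. Of the 6 decay genes, 2 (Rnf123 and Ubac1) were also highest in T14, 1 in T8 and 3 in TUN.

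Of 14 factors known to act on the Ink4 locus, 1 passed the edgeR goodness of fit. Cbx7, a Polycomb reader that represses the locus, stood at 45.3 CPM in T14, 28.0 CPM in T10, 7.0 CPM in T8 and 9.02 CPM in TUN (Benjamini-Hochberg adjusted p = 0.0365). The call was lost without any 1 tumour (edgeR adjusted p = 0.0934 to 0.452) and with other low-count filters (0.0504 and 0.0822). Its values were high in the tumours where Cdkn2b was low, and low where Cdkn2b was high, but neuron and astrocyte markers were also high in T14 and T10 and their part was not tested. Bmi1, the other classical repressor of Cdkn2a, stood at 101, 138, 147 and 131 CPM, and the PRC2 methyltransferase gene Ezh2 at 44.5, 47.5, 87.2 and 101 CPM; Ezh2 was highest in TUN and lowest in T14, as Mki67 was. Of 10 FoxO and TGF-beta factors that act on the inhibitors, 0 passed. The median span was 2.38-fold for the kinase and cyclin list, 2.11 for Rb and E2F genes, 1.82 for the p53 axis, 1.83 for the decay genes, 1.59 for the Ink4 locus factors and 1.56 for the FoxO and TGF-beta list, against 1.57 over all genes tested.

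Of the imprinted cluster list of Cdkn1c, 2 of 5 tested genes passed the edgeR goodness of fit, Igf2 and H19, both more than 250 kb from Cdkn1c. Kcnq1ot1, Kcnq1 and Nap1l4, which lie within 250 kb of it, did not pass. Igf2, the growth factor expressed from the paternal copy, stood at 65.6 CPM in T14, 123 CPM in T10, 11.5 CPM in T8 and 2.10 CPM in TUN (Benjamini-Hochberg adjusted p = 1.48e-10), the order of Cdkn1c. H19, the maternally expressed RNA beside it, stood at 13.6, 21.3, 111 and 33.5 CPM and was highest in T8 (adjusted p = 0.00255 in the same edgeR fit). Without T8 the H19 call was lost (edgeR adjusted p = 1.0), while Igf2 passed without each tumour in turn. Kcnq1ot1, the paternal antisense RNA that silences Cdkn1c in cis, stood at 2.75, 4.93, 2.26 and 2.32 CPM and was highest in T10, as Cdkn1c was. It lies within Kcnq1 on the other strand, so without strand marks its reads cannot be told from those of unspliced Kcnq1 RNA. The ependyma and choroid plexus list and the mature oligodendrocyte list were also summed highest in T10, and their part in the Igf2 and Cdkn1c levels was not tested.

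The genes most like each inhibitor over the 4 tumours were sought among 12039 genes at a mean of 5 CPM or more, by the root mean square difference of centred log2 CPM. Cdkn1a was closest to Atf3, a stress-induced transcription factor (0.03 log2 units, at 5.64, 3.70, 7.84 and 10.9 CPM in T14, T10, T8 and TUN), followed by Plau and Fcer1g (0.06 and 0.08). Only 6 genes came within 0.1 of it, and Cdkn2a, at 0.13, was the nearest of the other inhibitors. Cdkn2a in turn was closest to Syk, Apobec1 and Plau (0.11, 0.11 and 0.12), so that Plau, the urokinase gene, was near to both. Syk and Fcer1g are genes of immune cell signalling, and the microglia and macrophage list, split as given above, was summed highest in TUN (1416 CPM, of which Lyz2 made up 951 CPM) and lowest in T10. Its part in these patterns was not tested.

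Cdkn2b had Lgals1, a galectin, Skap2 and Ldha, the lactate dehydrogenase of glycolysis, as its nearest genes (0.05, 0.08 and 0.08), with 4 genes within 0.1. Its nearest inhibitor was Cdkn2c, at 0.32, and its neighbour Cdkn2a lay at 0.47. Cdkn1c was nearest to Resp18, Kcnh2 and Nrip2 (0.08, 0.12 and 0.14) and stood 1.0 to 1.6 from the other 6 inhibitors, farther than any of those 6 from one another. Cdkn1b, Cdkn2d and Cdkn2c, the inhibitors with the smallest spans, had many close partners. Within 0.1 there were 175 genes of Cdkn1b, led by Zmat2, Fem1c and D2hgdh. There were 103 of Cdkn2d, led by C1qa, which is on the microglia and macrophage list, Pcdhb18 and Romo1. For Cdkn2c there were 73, led by Gm5617, Tmem176b and Csf2rb. With 4 tumours these likenesses are descriptions of level patterns.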

How the data were processed

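PolyA RNA of 4 mouse tumours was sequenced. The deposited table holds raw read counts per gene, made by the authors, per the submitters' processing notes, with STAR for alignment to mm10 and featureCounts for counting, and the merged exon length of each gene. No source used here gives their versions, the strand setting or how multi-mapping reads were counted. Genes follow GENCODE vM8, named with the table. Symbols matched 46451 of 46946 identifiers. The 4 columns, T14, T10, T8 and TUN, could not be tied to single sample titles and entered as tumours of the only group, PDGFB K27M, without replicate numbers; 0 sample columns were left aside. Beyond separate tumours, the labels do not say how the samples relate, so p-values measure only the spread between them.

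Library totals were 23194257 (T14), 24369339 (T10), 24155724 (T8) and 21664889 (TUN). Counts were scaled with TMM factors (0.971, 1.01, 0.988 and 1.03, estimated on the genes that passed the default edgeR filter) to CPM and, by exon length, RPKM. Excess variability was tested with an intercept-only edgeR 4.0.16 model (R 4.3.3) at the trended dispersion, the deviance against chi-square with 3 degrees of freedom, adjusted by Benjamini-Hochberg over 14266 genes. This step was tested on simulated data. Level differences used log2(RPKM + 0.1) with an exact sign-flip test, two-sided. Poisson intervals (95%) and the 3-count floor cover counting error only, since reads carry no molecular identifiers. Sequence work used Python 3.11.15, RefSeq promoter windows on GRCm38.p6 and GENCODE vM21 transcripts.

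The genes and lists were chosen with earlier results of these data known. Named were the 7 inhibitors, fixed partner genes, list genes past the goodness of fit (at most 4 per list), the 2 most abundant genes of each cell type list, neighbours within 250 kb at mean CPM 1 or more, and the 3 most alike genes at mean CPM 5 or more. Some other list genes were named outside these rules with their values known. They were Cdk1, Ezh2, Sesn2, Ccng1, Trp53inp1, Mdm4, Rnf123, Ubac1, Csf1r, P2ry12 and Tmem119. Alternatives were other scalings (DESeq2 1.42.0 size factors, library totals), other filters, a common dispersion, DESeq2 dispersion outliers, another pseudocount, no length correction and leaving out each tumour.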

Additional observations from a re-analysis of the deposited data

How the results depend on the processing

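The count of inhibitors called by edgeR was 0 of 7 in every alternative run, while their smallest adjusted p ranged from 0.206 (common dispersion) to 1.0 (without T10), and with DESeq2 as dispersion outliers 0 of 7 were called (0.547% of all genes). Leaving out each tumour gave 0 calls throughout, against 2.95% to 3.22% of all genes, and 0 to 3 of 7 genes at an unadjusted p under 0.05, against 6.91% to 7.78%. The count spanning over 2-fold, whose alternatives were chosen after seeing the data, ran from 2 to 5 when a tumour was left out (2 without T10, 3 without TUN). With CPM in place of RPKM, 20 of 21 pairs had the same sign in all tumours, the mean log2 ratio of Cip/Kip to Ink4 turned to 0.43, and that of Ink4 to Cdk4 and Cdk6 to -0.66, because long genes then weigh more. Among the upper 5 genes signs turned with single tumours left out. Cdkn1a minus Cdkn1b ran from -0.29 to 0.15 (0.11 without T14, 0.15 without T10), Cdkn2c minus Cdkn1b from -0.21 to 0.19 (0.19 without T14, 0.070 without T10), Cdkn1b minus Cdkn2b from -0.018 (without T14) to 0.57, Cdkn1a minus Cdkn2c from -0.082 to 0.080 (without T10), and Cdkn2b minus Cdkn2d from -0.15 (without T8; -0.0088 without TUN) to 0.32. The other lists had 23 called genes, 22 with DESeq2 size factors and 18 to 19 without single tumours. No pairing of samples was possible because the labels give 1 group and the columns carry no replicate numbers. Differences between genes and between families were taken within each tumour. With 4 tumours of 1 group, differences between genes cannot pass the exact test, and p16 and p19Arf are not separated.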

Other observations

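Genes beside the inhibitors did not all share their order of tumours. Next to Cdkn1a, the p53-responsive non-coding RNA Trp53cor1 (12018 bases away) had 5.46 CPM in T14, 3.22 CPM in T10, 10.5 CPM in T8 and 7.64 CPM in TUN, lowest in T10 as Cdkn1a was, but highest in T8. Next to Cdkn1b, the non-coding RNA Lockd (3579 bases away) had 7.68, 4.80, 10.2 and 18.7 CPM and was highest in TUN, while Cdkn1b was highest in T14. Also near Cdkn1b, Crebl2 had 51.9, 48.4, 8.34 and 11.3 CPM in T14, T10, T8 and TUN, and passed the edgeR goodness of fit (Benjamini-Hochberg adjusted p = 0.00977), though not without T10 or T8 (edgeR adjusted p = 0.0976 and 0.157). Near Cdkn2d, S1pr5, a receptor of mature oligodendrocytes, had 17.6, 17.3, 2.64 and 1.92 CPM and also passed (adjusted p = 0.0166 in the same edgeR fit), as the mature oligodendrocyte markers did, but not without T14, T10 or TUN (edgeR adjusted p = 0.0793, 0.0722 and 0.165) or with no low-count filter (0.0642). Kri1, 494 bases from Cdkn2d, had 11.3, 11.0, 10.3 and 9.15 CPM. Near Cdkn2c, Faf1 had 63.9, 60.9, 82.1 and 86.0 CPM in the same order, and like Cdkn2c it was lowest in T10 and highest in TUN. Within 250 kb and at a mean of 1 CPM or more there were 2 genes around Cdkn2a and 2 around Cdkn2b, 4 around Cdkn2c, 16 around Cdkn2d, 9 around Cdkn1a, 9 around Cdkn1b and 8 around Cdkn1c.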
